A study of Homo sapiens with 6 samples.

Results

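The histone cluster genes are the genes of the HIST1, HIST2, HIST3 and HIST4 groups, which encode the core histones H2A, H2B, H3 and H4 and the linker histone H1. They were taken as every gene symbol beginning with HIST1H, HIST2H, HIST3H or HIST4H, without the symbols that mark a pseudogene. This gave 76 of the 58174 genes in the files, of which 6 were H1, 17 H2A, 23 H2B, 15 H3 and 15 H4. HIST1H3D_1 and HIST1H3D_2, separate rows in the files, were matched to the same RefSeq gene and are counted as separate members throughout. 5 of the H2B symbols (HIST2H2BA, HIST2H2BB, HIST2H2BC, HIST2H2BD and HIST3H2BA) were annotated as pseudogenes in RefSeq although their names do not say so. By group, 56 members were in HIST1, 15 in HIST2, 4 in HIST3 and 1 in HIST4.

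T24 is a human bladder cancer cell line, and all samples were T24 cells stably transduced with a lentiviral shRNA and selected with puromycin. 3 samples carried a control shRNA (shRNA-NC) and 3 carried an shRNA against UBC9 (shRNA-UBC9), the enzyme that attaches SUMO to proteins. The knockdown used 1 hairpin, so an effect of the hairpin on other targets cannot be told apart from the loss of UBC9. The labels do not say whether the 3 samples of a group were separate cultures, so the p-values measure the spread between these samples, which may be technical.

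Most genes of these clusters are switched on in S phase to supply histones for newly made chromatin. Their short, intronless mRNAs end in a stem-loop that is bound by SLBP, instead of a poly(A) tail, although some members also make a longer transcript with a tail. The labels give the sequenced material as poly(A) RNA. A change in the amount of a histone mRNA and a change in the part of it that carried a tail therefore cannot be told apart here. In RNA from whole cultures, fewer cells in a phase of the cell cycle and less RNA per cell cannot be told apart either.

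Levels are given as RPKM, a read number corrected for the length of the gene model and for the depth of the sample. The deposited RPKM values could be turned back into whole reads, which gave between 28219032 and 36058872 mapped reads per sample. Reads here means what the authors' software counted, which may be reads or read pairs. The samples correlated at 0.979 to 0.990 within a group and at 0.911 to 0.943 between groups (Pearson's r of log2(RPKM + 0.1) across genes). In each group 1 library stood apart. shRNA-NC replicate 1 and shRNA-UBC9 replicate 3 had 0 reads of the blood cell genes PTPRC, CD3E, LYZ, HBB and HBA1, while each of these genes had between 7 and 50 reads in every one of the other 4 libraries. CD14, another blood cell gene, did not follow this division. It had 37 and 40 reads in that pair of libraries and 17 to 48 in the others. Below, blood cell reads means reads of the named genes without CD14. The same pair of libraries had the fewest mapped reads, 29847726 and 28219032, and their deviations from the group means correlated at 0.526 across genes, the highest of the 9 pairs of a shRNA-NC with a shRNA-UBC9 sample. What sets these libraries apart is not given in the labels, and values without them or with this difference as a term are given beside the results that it changes. The keratins KRT7, KRT8 and KRT18 were abundant, while the uroplakins, markers of mature urothelium, were at or near 0 and KRT20 and KRT5 were listed at 0 in every sample.

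The stem-loop was read from the GRCh38 genome behind the stop codon of each member, using GENCODE release 44 gene models. A stem of 6 bases beginning GGNNNT, a loop of 4 bases and the reverse complement ANNNCC of the first arm were found within 150 bases of the stop codon in 69 of the 71 members with a coding model. The exceptions were HIST1H2AG and HIST1H2AK. Of 19824 other protein-coding genes, 19 (0.0958%) held such a sequence in that window. The following sequences show that members with very different values carried near-identical stem-loops. These lie near the stop codon, and the annotated end of some members lies further on. Each is given 5′ to 3′ on the gene's strand, with the stem and loop in capitals, and the coordinates are those of the capitals.
HIST1H1C (chr6:26055744-26055759, minus strand): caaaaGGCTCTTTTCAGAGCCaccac
HIST1H2AC (chr6:26124669-26124684, plus strand): ccaaaGGCTCTTTTCAGAGCCcccct
HIST2H2BE (chr1:149886188-149886203, minus strand): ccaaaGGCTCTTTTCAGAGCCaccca
HIST1H2BH (chr6:26252055-26252070, plus strand): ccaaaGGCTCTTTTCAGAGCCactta
HIST1H3H (chr6:27810516-27810531, plus strand): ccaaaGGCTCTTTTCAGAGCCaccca
HIST1H2BC (chr6:26123472-26123487, minus strand): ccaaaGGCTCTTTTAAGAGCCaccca
HIST1H2BK (chr6:27146366-27146381, minus strand): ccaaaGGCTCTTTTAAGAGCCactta
HIST1H4J (chr6:27824459-27824474, plus strand): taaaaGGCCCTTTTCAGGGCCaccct
HIST2H4A (chr1:149833032-149833047, plus strand): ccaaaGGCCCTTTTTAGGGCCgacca
The 26 bases printed for HIST2H2BE and HIST1H3H are the same, and these members had log2 fold changes of 2.41 and -0.22.

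In poly(A) RNA of T24 cells with the UBC9 shRNA, the histone cluster genes had more reads in sum, and most of their reads came from a limited number of members. Summed over all 76 members, 45.8, 45.0 and 55.9 reads per 1000000 mapped reads (RPM) were counted in the shRNA-NC samples and 179, 140.5 and 80.0 in the shRNA-UBC9 samples. The mean was 48.9 ± 6.1 in shRNA-NC and 133 ± 50.1 in shRNA-UBC9 (SD, n = 3 each), a ratio of 2.73, and the groups did not overlap. The 10 members with the most reads held 72.1% of the 18498 reads on all members. These sums are not corrected for the length of the genes.

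19 members were at 0 in every sample, and 57 were detected. A gene was tested where 3 or more of the 6 samples reached 0.5 RPKM, a filter that 23 members and 12428 genes in all passed, and limma was fitted to all of these. Of these 23, 13 were higher in shRNA-UBC9 at an adjusted p below 0.05, which is 56.5%, while 18.8% of all tested genes were called higher. 1 member, HIST1H2BH, was lower, and 18% of all tested genes were called lower. 10 members (43.5%) were DEGs, meaning that they also had a log2 fold change above 1, compared with 5.2% of all tested genes. By limma 0 members were DEGs in the lower direction, compared with 2.7% of all tested genes, and 0 had a log2 fold change below -1 with an unadjusted p below 0.05 or with voom on the recovered reads. In 15 of the 23, all 3 shRNA-UBC9 samples were above all 3 shRNA-NC samples. The share of all tested genes with such a separation was not computed. The median log2 fold change was 1.03 over the 23 members and 0.005 over all tested genes. 2 of the tested members, HIST1H4H and HIST2H3C, both among the 15 above, passed the filter only through the shRNA-UBC9 samples. These 2 members were bound to look higher there. Without them 21 members were tested, with 12 higher and 9 of these DEGs. Of the 13 members at or above 0.5 RPKM in all 6 samples, 9 were called higher. In these counts near-identical copies are separate members, as in the files, and with 3 pairs of copies summed 20 members were tested, of which 12 were higher and 10 were DEGs. In the 4 libraries with blood cell reads 13 members were higher and 0 lower, and with the presence of these reads as a term in the limma fit 15 were higher. The shares of all tested genes called in these fits are not given here. Within the 2 libraries without blood cell reads, 1 of each group, the median log2 difference of the 23 members was 0.65, and within the other 4 it was 1.21.

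**Figure D1:**
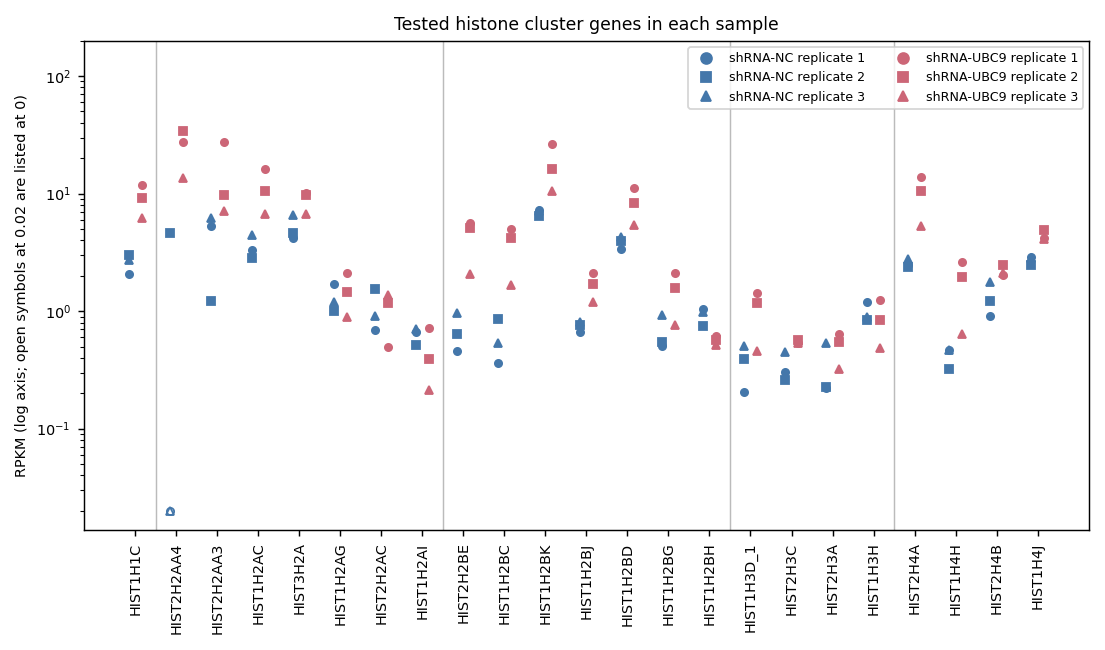
RPKM of the 23 tested histone cluster genes in each sample on a log axis, with shRNA-NC in blue and shRNA-UBC9 in red, a symbol for each replicate number, and grey lines between H1, H2A, H2B, H3 and H4. Open symbols at the foot mark the 2 samples in which HIST2H2AA4 was listed at 0. In 15 of the 23 members all red symbols lie above all blue symbols. Among these are HIST1H4H and HIST2H3C, which passed the filter only through shRNA-UBC9. The share of all tested genes with such a separation was not computed.

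Among the linker histones, which bind the DNA between nucleosomes, HIST1H1C was the only member that passed the filter, and it rose. HIST1H1C (chr6:26055740-26056470, RefSeq H1-2) was at 2.09, 3.01 and 2.72 RPKM in shRNA-NC and at 11.8, 9.11 and 6.18 RPKM in shRNA-UBC9. The lowest shRNA-UBC9 sample was above the highest shRNA-NC sample, and the log2 fold change was 1.72 (SE 0.23, limma adjusted p = 0.000993). These values rest on 166 reads in the 3 shRNA-NC samples and 590 in the 3 shRNA-UBC9 samples. The authors' gene model of HIST1H1C was 642 bases long, the length of its coding sequence. HIST1H1E and HIST1H1D, other linker histones of S phase, were too low to test, with 14 reads in shRNA-NC and 17 in shRNA-UBC9 for HIST1H1E and 3 and 10 for HIST1H1D.

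The H2A members were divided between a few that rose and others that did not. HIST1H2AC was at 3.31, 2.82 and 4.45 RPKM in shRNA-NC and at 16.1, 10.6 and 6.74 RPKM in shRNA-UBC9. All shRNA-UBC9 samples were above all shRNA-NC samples, with a log2 fold change of 1.57 (SE 0.29, limma adjusted p = 0.00445). HIST2H2AA3 and HIST2H2AA4 are near-identical copies on chromosome 1, and their reads were placed differently from sample to sample. In shRNA-NC, HIST2H2AA4 was listed at 0 in replicates 1 and 3 and at 4.61 RPKM in replicate 2, whereas HIST2H2AA3 was lowest in replicate 2, at 1.21 RPKM. The sum of the copies is therefore described here in place of their separate values, although the counts over members hold them as separate rows. The sum was 87, 113 and 115 reads in shRNA-NC and 1105, 865 and 328 reads in shRNA-UBC9, or 3.19 ± 0.249 and 22.3 ± 9.71 RPM (SD, n = 3 each). Refitted as a summed row, the copies had a log2 fold change of 2.66 (SE 0.31, limma adjusted p = 0.000523), larger than that of any tested member that was not such a copy. The separate call of HIST2H2AA4 was lost in the 4 libraries with blood cell reads (limma adjusted p = 0.0605).

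HIST3H2A, the H2A gene of the HIST3 group, was at 4.19, 4.61 and 6.57 RPKM in shRNA-NC and at 10.2, 9.70 and 6.65 RPKM in shRNA-UBC9. The highest shRNA-NC sample was just below the lowest shRNA-UBC9 sample, and the log2 fold change was 0.78 (SE 0.20, limma adjusted p = 0.0192). This call was lost in 5 of 18 other fits, among them those without shRNA-NC replicate 1 or 2 or shRNA-UBC9 replicate 2 (limma adjusted p = 0.0705, 0.0606 and 0.0608). HIST1H2AG, HIST2H2AC and HIST1H2AI overlapped between the groups, with log2 fold changes of 0.14, -0.08 and -0.53 (limma adjusted p = 0.747, 0.883 and 0.262). Without shRNA-UBC9 replicate 1, HIST1H2AI was lower at -0.88 (limma adjusted p = 0.0485). HIST1H2AE was too low in shRNA-NC to pass the filter. It was at 0.263, 0.113 and 0.116 RPKM in shRNA-NC and 1.36, 1.45 and 0.487 RPKM in shRNA-UBC9, from 8 and 58 reads.

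H2B was the type with the most members called higher, 5 of the 7 tested, and all 5 were DEGs. HIST2H2BE was at 0.458, 0.645 and 0.956 RPKM in shRNA-NC and at 5.68, 5.15 and 2.08 RPKM in shRNA-UBC9. The groups were apart, with a log2 fold change of 2.41 (SE 0.38, limma adjusted p = 0.0021). HIST1H2BC was at 0.362, 0.866 and 0.532 RPKM in shRNA-NC and at 4.96, 4.15 and 1.66 RPKM in shRNA-UBC9, with a log2 fold change of 2.36 (SE 0.41, limma adjusted p = 0.00325). HIST1H2BK, the most abundant H2B member, was at 7.21, 6.44 and 7.14 RPKM in shRNA-NC and at 26.2, 16.3 and 10.6 RPKM in shRNA-UBC9. Its log2 fold change was 1.25 (SE 0.27, limma adjusted p = 0.009), and its shRNA-UBC9 samples were more widely spread than its shRNA-NC samples. HIST1H2BD, at 3.88 ± 0.453 RPKM in shRNA-NC and 8.33 ± 2.94 RPKM in shRNA-UBC9 (SD, n = 3 each), rose by 1.03 on the log2 scale (limma adjusted p = 0.0111). HIST1H2BJ, at 0.746 ± 0.0704 RPKM and 1.68 ± 0.469 RPKM (SD, n = 3 each), rose by 1.04 (limma adjusted p = 0.00642).

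The remaining tested H2B members were not called higher. HIST1H2BG was at 0.502, 0.546 and 0.925 RPKM in shRNA-NC and at 2.12, 1.57 and 0.762 RPKM in shRNA-UBC9. The groups overlapped, and the log2 fold change of 1.0 missed the threshold (SE 0.35, limma adjusted p = 0.0568), while without shRNA-UBC9 replicate 3 it was 1.39 (limma adjusted p = 0.00676). It passed with the presence of blood cell reads as a term (limma adjusted p = 0.0207). HIST1H2BH was at 1.04, 0.743 and 0.990 RPKM in shRNA-NC and at 0.619, 0.565 and 0.516 RPKM in shRNA-UBC9. It was the only tested member whose shRNA-UBC9 samples were all below its shRNA-NC samples, with a log2 fold change of -0.61 (SE 0.19, limma adjusted p = 0.0356). This call was lost in 8 of 17 other fits, among them that of the 4 libraries with blood cell reads (limma adjusted p = 0.208) and those that left out shRNA-NC replicate 1 or 3 (limma adjusted p = 0.114 and 0.12) or shRNA-UBC9 replicate 2 or 3 (limma adjusted p = 0.0907 and 0.0887). HIST1H2BC, HIST1H2BE, HIST1H2BF, HIST1H2BG and HIST1H2BI encode the same protein. Their coding sequences were not compared, and whether reads were divided between these genes was not tested. Annotated exons of HFE and of another gene overlap HIST1H2BC, and those of other genes overlap HIST1H2AC, HIST1H3D and HIST1H4H. Reads of such neighbours could be counted with these members. How the authors' software handled strand and reads that map to several places is not given in the sources used here.

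Of the 4 tested H3 members, 0 passed the limma test and 0 that of voom on the recovered reads, while 2 were higher at an unadjusted p below 0.05. HIST1H3H, the highest of them, was at 1.19, 0.840 and 0.884 RPKM in shRNA-NC and at 1.26, 0.849 and 0.487 RPKM in shRNA-UBC9. The groups overlapped, and the log2 fold change was -0.22 (SE 0.30, limma adjusted p = 0.592). HIST1H3D, in its first row in the files, was at 0.205, 0.388 and 0.506 RPKM in shRNA-NC and at 1.44, 1.18 and 0.455 RPKM in shRNA-UBC9. Here shRNA-UBC9 replicate 3 fell within the range of shRNA-NC, and the log2 fold change of 1.20 missed the threshold (SE 0.41, limma adjusted p = 0.0516), while without that sample it was 1.65 (limma adjusted p = 0.00657). It also passed with the presence of blood cell reads as a term (limma adjusted p = 0.00543). HIST2H3A and HIST2H3C, another pair of near-identical copies, summed to 26, 28 and 55 reads in shRNA-NC and 70, 65 and 40 reads in shRNA-UBC9, with a log2 fold change of 0.63 (SE 0.26, limma adjusted p = 0.091). HIST1H3E did not pass the filter, with 105 reads in shRNA-NC and 221 in shRNA-UBC9, and its lowest shRNA-UBC9 sample, 0.437 RPKM, was close to its highest shRNA-NC sample, 0.430 RPKM. Whether H3 differed from the other types was not tested.

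The 4 tested H4 members were called higher, among them HIST1H4H, which passed the filter only through shRNA-UBC9. Without it 3 of 3 were higher. HIST2H4A was at 2.47, 2.37 and 2.79 RPKM in shRNA-NC and at 13.9, 10.6 and 5.27 RPKM in shRNA-UBC9. Its groups were apart, with a log2 fold change of 1.82 (SE 0.30, limma adjusted p = 0.00267). HIST2H4B, a near-identical copy, was at 0.903, 1.21 and 1.78 RPKM in shRNA-NC and at 2.03, 2.49 and 2.11 RPKM in shRNA-UBC9, with a log2 fold change of 0.77 (SE 0.22, limma adjusted p = 0.027). This call was lost in 5 of 16 other fits, among them those without shRNA-NC replicate 1 or 2 or shRNA-UBC9 replicate 2 (limma adjusted p = 0.0701, 0.0682 and 0.0856) and that of the 4 libraries with blood cell reads (limma adjusted p = 0.114). Summed, the pair had 190, 235 and 293 reads in shRNA-NC and 1083, 867 and 394 in shRNA-UBC9, and a log2 fold change of 1.58 (SE 0.26, limma adjusted p = 0.00255). HIST1H4J was at 2.87, 2.48 and 2.85 RPKM in shRNA-NC and at 4.16, 4.87 and 4.09 RPKM in shRNA-UBC9. It had the smallest standard error of the tested members and a log2 fold change of 0.66 (SE 0.11, limma adjusted p = 0.00301). HIST1H4H was at 0.465, 0.320 and 0.465 RPKM in shRNA-NC and at 2.60, 1.97 and 0.639 RPKM in shRNA-UBC9, with a log2 fold change of 1.65 (SE 0.44, limma adjusted p = 0.0195). Without shRNA-NC replicate 2 or shRNA-UBC9 replicate 2 the adjusted p of HIST1H4H was 0.0604 or 0.064.

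**Figure D2:**
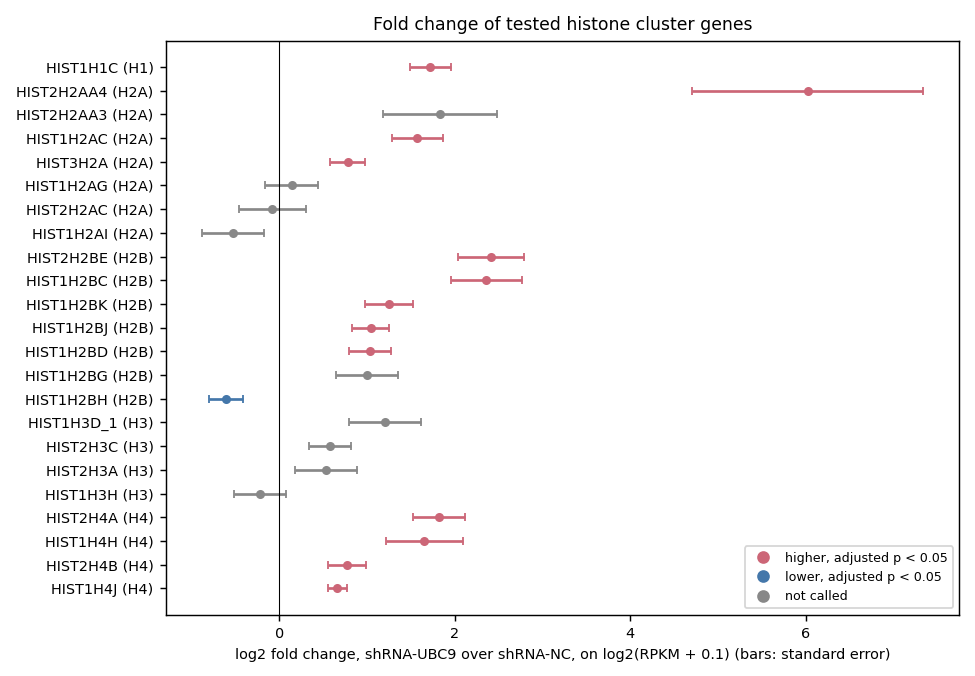
Log2 fold change of shRNA-UBC9 over shRNA-NC for the 23 tested histone cluster genes, on the log2(RPKM + 0.1) scale, ordered by histone type, with bars of 1 standard error. The 13 members in red were called higher, HIST1H2BH in blue was called lower, and the 9 in grey were not called. The wide bar of HIST2H2AA4 goes with the 2 shRNA-NC samples listed at 0.

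By type, the median log2 fold change of the tested members was 1.72 for H1 (1 member), 0.78 for H2A (7 members), 1.04 for H2B (7 members), 0.56 for H3 (4 members) and 1.21 for H4 (4 members). These medians depended on the members held: with no filter they were 0.53 for H1, 0.14 for H2A and 0.77 for H4, for H2A 0.46 with summed copies and 1.57 over members of at least 1 RPKM in every sample, and for H4 0.70 with a pseudocount of 1. The RPM summed over all members of a type had a higher mean in shRNA-UBC9 for every type. The ratio of the means was 1.6 for H3 and 2.58 to 3.25 for the other types. For H1, mostly from HIST1H1C, these sums were 1.87 ± 0.203 in shRNA-NC and 6.09 ± 1.87 in shRNA-UBC9 (SD, n = 3 each). For H2A they were 17.6 ± 2.49 and 53.4 ± 20.6 (SD, n = 3 each). The sums were 13.8 ± 1.47 and 35.7 ± 14.2 for H2B, and 10.8 ± 1.89 and 30.5 ± 11.2 for H4. For H3 they were 4.74 ± 0.476 and 7.61 ± 2.25, and here shRNA-UBC9 replicate 3, at 5.17, was below shRNA-NC replicate 3, at 5.29. In the other types no shRNA-UBC9 sample was below a shRNA-NC sample.

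**Figure D3:**
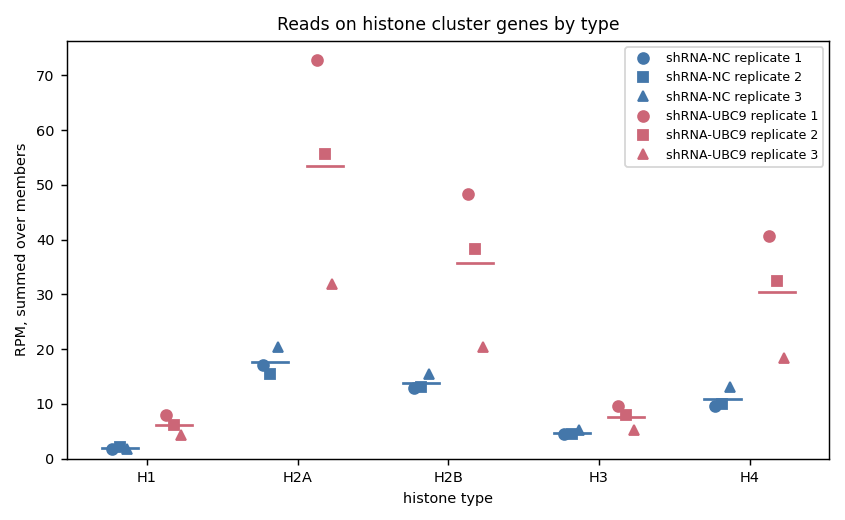
RPM summed over the members of each histone type in each sample, not corrected for gene length, with the group mean as a line. The shRNA-UBC9 samples lie above the shRNA-NC samples for H1, H2A, H2B and H4 and overlap them for H3.

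The shRNA-UBC9 samples were not alike. Of the 13 members called higher, replicate 1 was the highest shRNA-UBC9 sample in 10, and replicate 3 was the lowest in 12. Averaged over the 23 tested members, the log2 shift from the shRNA-NC mean was 1.56 in replicate 1, 1.31 in replicate 2 and 0.64 in replicate 3. The shRNA-NC samples lay at -0.18, 0.04 and 0.14. These means hold HIST1H4H and HIST2H3C, which passed the filter only through shRNA-UBC9 and were bound to look higher there. They also hold HIST2H2AA4, listed at 0 in shRNA-NC replicates 1 and 3. Means without these members were not computed. Replicate 3 also had the fewest mapped reads, 28219032, and with 3 samples no relation between these values was tested. Without replicate 3 the number of members called higher was 16, and without replicate 1 it was 13.

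The 34 members that were detected but not tested had between 1 and 326 reads over the 6 samples and reached at most 1.45 RPKM. All 3 shRNA-UBC9 samples were above all shRNA-NC samples in 4 of them, HIST1H2AE, HIST1H3E, HIST1H3G and HIST2H2BF. In 2, HIST1H2AM and HIST1H2BL, they were all below. How often either pattern occurred among all untested genes was not counted. HIST1H2AM had 7 reads in shRNA-NC and 3 in shRNA-UBC9, and HIST1H2BL had 12 and 5. HIST2H2BF rested on more reads, 61 and 163, and was at 0.199, 0.181 and 0.203 RPKM in shRNA-NC and 0.642, 0.542 and 0.311 RPKM in shRNA-UBC9. HIST4H4, the HIST4 member, overlapped between groups with 71 and 156 reads. Typical S phase members such as HIST1H3B, with 5 reads in shRNA-NC and 0 in shRNA-UBC9, and HIST1H4C, with 5 and 1, were close to the limit of detection. A difference in such members was not detectable at this depth.

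The members also differed in how their ends are annotated, which the choice of members did not use. An end more than 200 bases past the stop codon, in a GENCODE transcript or in the RefSeq gene, was annotated for 11 of the 23 tested members, and 10 of these 11 were called higher. The exception was HIST1H3H. The 10 hold HIST1H4H, which passed the filter only through shRNA-UBC9 and was bound to look higher. They also hold the near-identical copies HIST2H4A and HIST2H4B as separate members. Of the 12 tested members without such an end, 3 were called higher: HIST1H1C, HIST2H2AA4 and HIST1H4J. Among the 48 untested members with a gene model, 7 had an extended end. The RefSeq genes of HIST1H2BC, HIST1H2BD and HIST1H2BK end 10354, 12799 and 8125 bases past the stop codon, whereas that of HIST1H1C ends 47 bases past it. GENCODE models are drawn partly from poly(A) transcripts like those sequenced here, and the part of the tail in these differences was not tested. The authors' gene models, whose lengths were recovered from the deposited values, gave another division. 16 tested members had a model more than 200 bases longer than the coding sequence, and 9 of these were called higher, as were 4 of the 7 with a shorter model. HIST1H4H, HIST2H4A and HIST2H4B are also among the 9. HIST1H2BK, with a model of its coding length of 381 bases, was higher, while HIST1H2AG and HIST1H2BH, with models of 2250 and 2060 bases, were not. By these models the shares called higher were thus close, and no difference by the kind of end was tested.

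The form of the stem-loop also varied. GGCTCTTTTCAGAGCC was present in 41 members of H1, H2A, H2B and H3, of which 13 were tested, with 5 higher, 1 lower and 7 not called. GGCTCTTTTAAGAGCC was present in 10 members, and the 4 of these that were tested, HIST1H2BC, HIST1H2BD, HIST1H2BJ and HIST1H2BK, were all higher. These 4 are also all H2B genes of HIST1 with an annotated extended end, so in them these traits cannot be told apart from the form. No difference by form was tested. The forms with CCC in the stem were found in H4 genes: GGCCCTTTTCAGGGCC in 10 members, with HIST1H4H and HIST1H4J tested and higher, and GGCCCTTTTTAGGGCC in 4, with HIST2H4A and HIST2H4B tested and higher. HIST2H2AC was the sole member with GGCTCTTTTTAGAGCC. Of the H4 members, HIST1H4H passed the filter only through shRNA-UBC9, and HIST2H4A and HIST2H4B are near-identical copies. The CCC stems went together with H4, so these cannot be told apart. The other leading forms each occurred in H1, H2A, H2B and H3, and among tested H2B members both occurred, with HIST2H2BE, HIST1H2BG and HIST1H2BH holding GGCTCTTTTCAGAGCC.

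H2A and H2B genes of the clusters often lie head to head and share the sequence between their starts. 13 such pairs of members with starts less than 600 bases apart were found, 12 of them of an H2A and an H2B gene. HIST1H2BC and HIST1H2AC start 246 bases apart and both rose, from 49 to 310 reads and from 579 to 1909 reads over 3 samples each. In HIST2H2BE and HIST2H2AC, 236 bases apart, the H2B gene rose from 150 to 976 reads while the H2A gene had 41 and 38 reads. HIST1H2BJ and HIST1H2AG, 248 bases apart, had 70 and 162 reads and 285 and 346 reads, and only the former passed the test. HIST1H2BK rose from 259 to 693 reads, and its partner HIST1H2AH had 6 and 2 reads. Whether the changes of paired members differ was not tested.

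The promoters of both these H2B genes are given to show the shared regions, 5′ to 3′ on the strand of the H2B gene, from 250 bases before to 50 after its start (RefSeq, GRCh38.p14). Capitals mark TATAAA, the sequence of the TATA box, the octamer ATTTGCAT, a site for the factor POU2F1, and the CCAAT box, on either strand. The only TATAAA marked in HIST1H2BC is on the other strand, and is also in the promoter of HIST1H2AC.
HIST1H2BC (chr6:26123877-26124176, minus strand): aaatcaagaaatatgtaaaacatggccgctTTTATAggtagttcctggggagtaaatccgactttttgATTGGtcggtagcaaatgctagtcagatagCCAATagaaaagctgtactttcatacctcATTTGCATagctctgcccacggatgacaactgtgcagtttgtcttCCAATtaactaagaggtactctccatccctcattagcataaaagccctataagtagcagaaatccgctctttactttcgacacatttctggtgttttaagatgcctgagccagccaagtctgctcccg
HIST2H2BE (chr1:149886633-149886932, minus strand): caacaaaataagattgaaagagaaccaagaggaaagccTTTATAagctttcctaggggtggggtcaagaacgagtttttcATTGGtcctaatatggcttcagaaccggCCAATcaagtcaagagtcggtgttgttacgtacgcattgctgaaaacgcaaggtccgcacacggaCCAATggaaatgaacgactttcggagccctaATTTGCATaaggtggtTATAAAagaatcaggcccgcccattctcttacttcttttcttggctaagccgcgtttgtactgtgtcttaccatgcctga
For contrast, the promoter of HIST1H2BH, the member that was lower, also holds CCAAT and the octamer, but no TATAAA.
HIST1H2BH (chr6:26251364-26251663, plus strand): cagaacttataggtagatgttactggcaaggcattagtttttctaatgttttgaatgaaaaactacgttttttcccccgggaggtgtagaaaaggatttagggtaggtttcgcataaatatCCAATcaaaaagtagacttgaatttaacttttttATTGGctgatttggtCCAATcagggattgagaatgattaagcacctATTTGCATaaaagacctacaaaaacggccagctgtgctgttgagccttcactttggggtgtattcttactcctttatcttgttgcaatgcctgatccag

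RefSeq gave a promoter for 66 members. TATAAA was found in 43 of them, CCAAT in 56 and the octamer in 27, counting either strand. HIST1H2AD and both rows of HIST1H3D were given the same promoter, which holds an octamer and is counted for each of them. Over all 27305 RefSeq promoters of 300 bases the shares were 12%, 35.7% and 1.8%. Of the 18 H2B members with a promoter, 18 held CCAAT and 14 the octamer. The 13 members called higher held TATAAA in 8, CCAAT in 9 and the octamer in 5. The other 10 tested members held TATAAA in 8, CCAAT in 10 and the octamer in 5. These letters are a description of the window, and no site was tested for use in these cells.

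The list of replication-independent histone variants, most but not all made outside S phase from ordinary poly(A) mRNAs, had more genes lower than higher. Of the 11 tested, 2 were higher (18.2%) and 6 lower (54.5%), beside 18.8% and 18% of all tested genes, with a median log2 fold change of -0.38. H1F0, the linker histone of resting and differentiated cells, was at 137, 187 and 151 RPKM in shRNA-NC and at 287, 267 and 226 RPKM in shRNA-UBC9. Its groups did not overlap, and the log2 fold change was 0.72 (SE 0.14, limma adjusted p = 0.00478). H2AFX, the variant phosphorylated at DNA breaks, whose mRNA can end in either way, was at 112, 107.5 and 95.6 RPKM in shRNA-NC and at 50.4, 71.1 and 81.7 RPKM in shRNA-UBC9. It fell, with a log2 fold change of -0.66 (SE 0.17, limma adjusted p = 0.0169), which without shRNA-NC replicate 1 was -0.61 (limma adjusted p = 0.0614). H2AFZ, found at promoters, fell by 0.52 on the log2 scale (limma adjusted p = 0.0135), and H2AFV, its close relative, fell by 0.73 (limma adjusted p = 0.00144). CENPA, the centromere variant of H3, fell by 0.59 (limma adjusted p = 0.00532). H3F3B, a gene of the replacement histone H3.3, was at 177 ± 7.89 RPKM in shRNA-NC and 192 ± 24.2 RPKM in shRNA-UBC9 (SD, n = 3 each), and its log2 fold change was 0.11 (limma adjusted p = 0.463). H3F3A, also a gene of H3.3, was lower, with a log2 fold change of -0.32 (limma adjusted p = 0.0201).

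Among genes that transcribe histone genes or process their mRNAs, most did not pass the test. Of the 38 found and tested, 2 were higher (5.26%) and 5 lower (13.2%), both below the shares of all tested genes, with a median log2 fold change of -0.14. In the 4 libraries with blood cell reads 1 was higher and 2 lower. SLBP, which binds the stem-loop, was at 37.0, 39.6 and 34.5 RPKM in shRNA-NC and at 27.0, 34.6 and 32.7 RPKM in shRNA-UBC9. The groups overlapped by a narrow margin, and the log2 fold change was -0.24 (SE 0.11, limma adjusted p = 0.121). NPAT, the coactivator that links cyclin E to histone gene transcription, was at 5.07, 6.01 and 5.32 RPKM in shRNA-NC and at 7.08, 7.44 and 6.46 RPKM in shRNA-UBC9. It was higher, with a log2 fold change of 0.35 (SE 0.10, limma adjusted p = 0.0276). This call was lost in the 4 libraries with blood cell reads (limma adjusted p = 0.083) and in 4 of the 6 fits that left out a sample, shRNA-NC replicate 1 or 3 or shRNA-UBC9 replicate 1 or 2, where the adjusted p was between 0.0525 and 0.0992. CASP8AP2, a protein of histone locus bodies, had a log2 fold change of -0.24 (SE 0.13, limma adjusted p = 0.19). CCNE2, a cyclin E, fell by 0.83 on the log2 scale (limma adjusted p = 0.000823), and ERI1, an exonuclease that trims histone mRNA ends, fell by 0.45 (limma adjusted p = 0.0103). ZCCHC6, which adds uridines to histone mRNA during decay, rose by 0.54 (limma adjusted p = 0.0174). The octamer factor POU2F1 fell by 0.34 (limma adjusted p = 0.0445).

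Of the 43 tested genes of S phase, the phase in which cluster histones are normally made, 23 were lower (53.5%, beside 18% of all tested genes) and 0 higher by limma, while 20 did not pass, among them PRIM2 and TIPIN with log2 fold changes of 0.09 and 0.16. Without shRNA-NC replicate 1, 15 were lower. In the whole list 0 were higher at an unadjusted p below 0.05 or by voom, with a median log2 fold change of -0.48. TYMS, which makes thymidylate, fell by 1.0 on the log2 scale (limma adjusted p = 0.00104), GINS4 of the replicative helicase by 0.91 (limma adjusted p = 0.0019), and MCM6 of the same helicase by 0.90 (limma adjusted p = 0.00194). The mean shift of this list was -0.75, -0.38 and -0.29 in shRNA-UBC9 replicates 1, 2 and 3. The sample in which the histone members were highest was thus also that in which the S phase genes were lowest. Part of the S phase list, among it CHAF1A, CHAF1B and MCM2, is also in the list of histone chaperones.

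Histone chaperones, which carry new histones to DNA, showed 16 lower (53.3%) and 1 higher (3.33%) of 30 tested. Of all tested genes 18% were lower and 18.8% higher. The median log2 fold change of the chaperones was -0.29. ASF1B, which hands H3 and H4 to the assembly factors, was at 45.6, 40.3 and 38.1 RPKM in shRNA-NC and at 17.1, 21.1 and 27.0 RPKM in shRNA-UBC9. All shRNA-UBC9 samples were below all shRNA-NC samples, with a log2 fold change of -0.94 (SE 0.16, limma adjusted p = 0.00282). MCM2 fell by 0.65 on the log2 scale (limma adjusted p = 0.0191), TONSL, which reads new histone H4, by 0.62 (limma adjusted p = 0.0224), and SSRP1 of the FACT complex by 0.56 (limma adjusted p = 0.00808). The calls of MCM2 and TONSL were lost without shRNA-NC replicate 1 (limma adjusted p = 0.0703 and 0.0788), and that of TONSL also without shRNA-NC replicate 2 (limma adjusted p = 0.0585) and in the 4 libraries with blood cell reads (limma adjusted p = 0.0525). The number of chaperones called lower was 7 without shRNA-NC replicate 2, 9 without shRNA-NC replicate 1 or without replicate 3, and 6 in the 4 libraries with blood cell reads. The share of all tested genes called lower in these fits is not given here.

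Of the 13 tested poly(A) polymerases, binding proteins and general cleavage factors, which make the tails of other mRNAs, 7 were lower (53.8%) and 0 higher by limma. Of all tested genes 18% were lower and 18.8% higher. The median log2 fold change of this list was -0.27. In this list 0 were higher at an unadjusted p below 0.05 or by voom. CLP1, an RNA kinase of the cleavage complex, fell by 0.87 on the log2 scale (limma adjusted p = 0.000411). PABPC1, the cytoplasmic poly(A) binding protein, fell by 0.48 (limma adjusted p = 0.00294). CPSF7 fell by 0.47 (limma adjusted p = 0.00952), and CPSF6, its partner in cleavage factor I, by 0.39 (limma adjusted p = 0.015), a call lost without shRNA-NC replicate 3 (limma adjusted p = 0.0532) and in the 4 libraries with blood cell reads (limma adjusted p = 0.0613). In either of these fits the list had 4 genes lower.

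**Figure D4:**
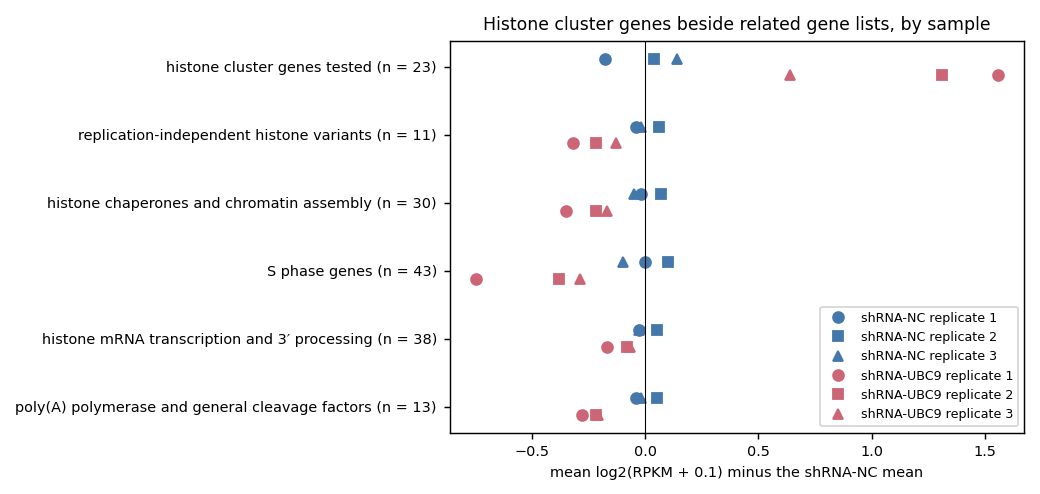
Mean log2(RPKM + 0.1) of the tested genes of each list in each sample, as the difference from the shRNA-NC mean, with shRNA-NC in blue and shRNA-UBC9 in red. The 23 tested histone cluster genes lie at 1.56, 1.31 and 0.64 in shRNA-UBC9, to the right of shRNA-NC, while the S phase genes lie at -0.75, -0.38 and -0.29. The histone genes include HIST1H4H and HIST2H3C, which passed the filter only through shRNA-UBC9, and HIST2H2AA4, listed at 0 in some shRNA-NC samples.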

How the data were processed

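Poly(A) RNA of 6 T24 samples (3 shRNA-NC, 3 shRNA-UBC9) was sequenced by the authors from Illumina TruSeq libraries. After trimming, the authors aligned the reads to GRCh38 in the CLC Biomedical Genomics Workbench with its default settings, and the deposited values are RPKM of 58174 genes in every sample. The annotation release, the use of strand, the treatment of reads with several matches and any filter are not given in the sources used here. RPKM is corrected for gene length and mapped reads, but not for RNA composition.

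A limma model (version 3.58.1, R 4.3.3) of the group was fitted to log2(RPKM + 0.1) by lmFit and moderated by eBayes, allowing a trend with intensity. It covered the 12428 genes that reached 0.5 RPKM in 3 or more of the 6 samples. The Benjamini-Hochberg adjustment was made over all of these. A gene was called at an adjusted p below 0.05, and as a DEG where the |log2 fold change| was also above 1. The pseudocount understates changes of low genes. The smallest p that exact permutation of these samples allows is 0.1. The fit was tested on simulated data.

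All 113625 values above 0 were whole multiples of the value of 1 read, within a tolerance of 0.001 read. This gave each gene model's length, its reads and the mapped reads, of which 91.9 to 92.9% lay on genes. The read numbers given are those recovered in this way, and low numbers carry counting error.

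The members and gene lists were chosen with earlier results of these data known. Named were every member called as a DEG, the 3 members of highest mean RPKM in each histone type, all H1 members that passed the filter, 7 fixed genes (H2AFX, H2AFZ, H3F3B, H1F0, SLBP, NPAT and CASP8AP2), and up to 4 called genes of largest change in each other list. Some items, the check of the targeted gene among them, are not reported here. Other members and genes were named after their values were seen. Alternatives were other pseudocounts, filters and scalings, no intensity trend, a replicate block, and leaving out each sample. A voom fit of the recovered reads and sums of near-identical copies, and fits of the 4 libraries with blood cell reads or with their presence as a term, were added after seeing the data. Stem-loops were searched in the GRCh38 genome with GENCODE release 44, and promoters and names came from RefSeq (GRCh38.p14). Other steps were run in Python 3.11.15 with numpy 2.4.6, pandas 2.3.3 and, for figures, matplotlib 3.10.9.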

Additional observations from a re-analysis of the deposited data

How the results depend on the processing

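The number of members called higher, 13, was 12 to 14 under other pseudocounts, no filter, other scalings, no intensity trend, the replicate block, voom on recovered reads and summed copies, 10 to 16 with a sample left out, and 15 with the presence of blood cell reads as a term. Requiring an RPKM of at least 1 in every sample left 8 members to test, of which 8 were higher and 0 lower, with 6 DEGs and a median log2 fold change of 1.57 for H2A. The single lower call became 0 with no filter, under the replicate block and under voom, and 0 to 2 with a sample left out. DEGs were 7 to 13 with a sample left out. The shares of all tested genes called in the other fits are not given here, for the members or for the gene lists. Whether the excess over all tested genes changed between fits therefore cannot be read from these counts. HIST1H2BH, HIST1H4H, HIST2H4B, HIST3H2A and HIST2H2AA4 lost their calls in some fits, while the other 9 called members kept theirs in every fit that held them.

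With no filter, 57 members were tested and the median log2 fold change was 0.53 for H1, 0.14 for H2A and 0.77 for H4. With summed copies it was 0.46 for H2A and 1.58 for H4, and with a pseudocount of 1 it was 0.70 for H4. With a sample left out it was 1.51 to 1.96 for H1, 0.65 to 0.97 for H2A, 0.86 to 1.39 for H2B, 0.42 to 0.80 for H3 and 1.05 to 1.5 for H4. The direction reversed for HIST1H2AG (-0.02 without shRNA-NC replicate 2 and -0.14 without shRNA-UBC9 replicate 1, in a range of -0.14 to 0.44 with a sample left out), for HIST1H3H (0.10 without shRNA-UBC9 replicate 3 and 0.24 in the 4 libraries with blood cell reads, in a range of -0.51 to 0.10) and for HIST2H2AC (0.21 without shRNA-NC replicate 2 and 0.31 without shRNA-UBC9 replicate 1, in a range of -0.33 to 0.31). None of these 3 was called.

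With a sample left out, histone variants had 1 to 2 higher and 5 to 7 lower, histone mRNA factors 1 to 2 higher and 3 to 5 lower, chaperones 0 to 2 higher and 7 to 14 lower, S phase genes 15 to 26 lower (15 without shRNA-NC replicate 1) and poly(A) factors 4 to 6 lower. The mRNA factors had 3 lower with no filter and 8 lower under median scaling or quantile normalization. Chaperones had 10 lower with no filter. In the 4 libraries with blood cell reads, 13 members were higher, 0 lower and 11 DEGs, the H4 median was 1.47, and the counts were 1 variant higher, 1 mRNA factor higher and 2 lower, 6 chaperones lower and 4 poly(A) factors lower.

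The replicate numbers did not pair the samples, since the correlations of the deviations of same-numbered samples were -0.367, 0.073 and -0.17, and the highest of all pairs, 0.526, was that of shRNA-NC replicate 1 with shRNA-UBC9 replicate 3. With the replicate block, 13 members were higher and 0 lower, 1 mRNA factor was higher and 3 lower, and 9 chaperones were lower. Of the other comparisons of named genes with an alternative, 933 kept their status, called or not called, 53 lost a call and 12 gained one. The 933 include genes such as SLBP that were called in neither fit. The cause of these changes was not tested beyond what each alternative removes. Members with few reads are the least certain, and depth, near-identical copies and the selection of poly(A) RNA limit what can be said of them.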

Other observations

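Of 16 urothelial and bladder cancer markers, 9 were tested, with 7 lower (77.8%) and 0 higher by limma (1 higher at an unadjusted p below 0.05, 0 by voom). Of all tested genes 18% were lower and 18.8% higher. The summed RPKM of the 16 markers was between 1387 and 1638 in shRNA-NC and between 815 and 916 in shRNA-UBC9. PPARG, a regulator of urothelial differentiation, was at 17.5 ± 3.04 RPKM in shRNA-NC and 4.21 ± 2.31 RPKM in shRNA-UBC9 (SD, n = 3 each) and fell by 2.15 on the log2 scale (limma adjusted p = 0.00169). KRT7 fell by 1.11 (limma adjusted p = 0.000578), FOXA1 by 1.08 (limma adjusted p = 0.000951) and KRT19 by 0.99 (limma adjusted p = 0.00698), a call lost in the 4 libraries with blood cell reads (limma adjusted p = 0.0698). VIM, at -0.38, and EPCAM, at 1.0, were not called (limma adjusted p = 0.121 and 0.0984).

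Of 15 markers of other cell types, 7 were tested, and their summed RPKM over all 15 was between 5.89 and 8.30 in shRNA-NC and between 3.04 and 5.64 in shRNA-UBC9. CDH5, ACTA2 and PDGFRB were lower, with log2 fold changes of -2.20, -1.51 and -1.48 (limma adjusted p = 0.00288, 0.00575 and 0.00325). COL1A1 was higher, at 0.95 (limma adjusted p = 0.0276), and lost this call in 4 of the 6 fits that left out a sample and in the 4 libraries with blood cell reads (limma adjusted p = 0.077). The leukocyte gene PTPRC had 0, 27 and 25 reads in shRNA-NC and 19, 30 and 0 in shRNA-UBC9, and CD3E, LYZ, HBB and HBA1 were likewise at 0 in shRNA-NC replicate 1 and shRNA-UBC9 replicate 3. CD14 was not, with 37 and 40 reads in these libraries. The part of the genes that moved with the groups in the histone values was not tested.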
